A study of Arabidopsis thaliana with 6 samples.

Results

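The NGATHA genes NGA1 to NGA4, the HECATE genes HEC1 to HEC3, and the genes SPT, IND and NTT encode transcription factors that build the carpel margin tissues of the Arabidopsis thaliana flower, and they were followed here in ovules. The 10 genes were picked by their locus identifiers from 30457 listed features, with their levels in sgd and wild-type ovules already known. Poly(A) RNA was sequenced from ovules labelled sgd mutant (3 libraries) and from ovules labelled wild type (3 libraries). Both genotypes carried the qrt1 background, in which pollen stays in tetrads, and all ovules were at the FG1-FG3 stage, when the embryo sac begins to develop. The plants grew in a greenhouse under long days, and the design text speaks of about 6000 ovules without saying whether that is per library. The locus changed in sgd, the kind of allele and whether the plants were homozygous are not given in the sources used here. Nothing in the labels says that libraries of a genotype came from separate plants, so spreads and p-values cover only these samples and may be technical.

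The gynoecium of Arabidopsis is formed by fused carpels whose margins stay meristematic and give rise to the placenta, the ovules, the septum, the transmitting tract, the style and the stigma. NGATHA proteins, which bind DNA through a B3 domain, act redundantly in style and stigma development, in part by promoting local auxin synthesis together with the SHI/STYLISH factors. HECATE proteins, SPATULA (SPT) and INDEHISCENT (IND) are basic helix-loop-helix (bHLH) factors that bind each other in several combinations, set auxin transport and cytokinin responses, and pattern the stigma, the transmitting tract and the valve margin. NO TRANSMITTING TRACT (NTT) is a zinc finger protein of the WIP family needed for the transmitting tract through which pollen tubes grow. The comparison asks how these genes differ between mutant and wild-type ovules early in embryo sac growth.

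The first set of sequences shows how the NGATHA genes are related. Coding sequences of the 4 NGATHA genes were 67.4% to 80.0% identical over aligned bases in 6 pairs, with NGA1 and NGA2 the closest pair. The longest stretch that NGA1 and NGA2 share exactly is 63 bases long, starts at base 250 of the NGA1 coding sequence and base 223 of the NGA2 coding sequence, and is printed in lower case.
NGA1 and NGA2: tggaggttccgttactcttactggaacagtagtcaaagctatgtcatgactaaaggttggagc
Such a stretch could bear on the values below, because RSEM, which the submitters' notes name, can divide reads between genes that share sequence. The shared part was small here. Of the 50-base words in the NGA1 transcript only 0.887% also occur in another annotated transcript, and all of them are in NGA2. For NGA2 the share is 0.739%, and for the other 8 genes it is 0. None of the 10 genes overlaps another annotated gene, so unstranded counting would not mix them with an antisense partner. Sequences, positions and gene models are those of RefSeq for assembly TAIR10.1, while the submitters' notes name TAIR10, and all 10 loci matched.

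A second set shows an element common to the 4 NGATHA genes, noticed when their upstream regions were read. The 15 letters CACATGANNNGAACC lie near the annotated start of each NGATHA gene, on the gene's strand, and are in capitals after the 15 bases that precede them.
NGA1, chr2:19260830-19260859, plus strand: aaaggacaataaggtCACATGAACTGAACC
NGA2, chr3:22951364-22951393, plus strand: aaaggacaagaagctCACATGAACAGAACC
NGA3, chr1:13715-13744, minus strand: aaaggacaagaagctCACATGACCCGAACC
NGA4, chr4:639136-639165, plus strand: aggacaagaagctctCACATGACCCGAACC
The element begins at position -61 for NGA1, -15 for NGA3 and -96 for NGA4, counted from the annotated gene start, and at base 57 of the NGA2 transcript. Searched on both strands from 250 bases before to 100 bases into each of 27443 protein-coding genes, the letters occurred in 6 windows, or 0.0219%. These were the 4 NGATHA genes and 2 others, AT1G14830 (RefSeq symbol DL1C) and AT4G33990 (RefSeq symbol EMB2758). The letters were defined as those shared by the 4 NGATHA windows, so these 4 matches were fixed in advance. The share is therefore no measure of how particular the element is to these genes. In the 250 bases upstream alone, 5 windows held it (0.0182%). The match is a description of letters and says nothing about which factor, if any, binds there.

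The upstream region of NGA1, the NGATHA gene with the highest wild-type mean, is printed to show the element in place, with E-box letters CANNTG in capitals (chr2:19260656-19260905, plus strand).
NGA1 upstream: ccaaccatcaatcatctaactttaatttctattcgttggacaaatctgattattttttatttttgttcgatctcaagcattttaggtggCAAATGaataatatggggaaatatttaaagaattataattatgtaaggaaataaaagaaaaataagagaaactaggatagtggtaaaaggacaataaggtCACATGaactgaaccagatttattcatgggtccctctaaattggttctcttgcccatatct
The upstream region of SPT is shown because it holds the only G-box of the set (chr4:17413833-17414082, plus strand), again with CANNTG in capitals.
SPT upstream: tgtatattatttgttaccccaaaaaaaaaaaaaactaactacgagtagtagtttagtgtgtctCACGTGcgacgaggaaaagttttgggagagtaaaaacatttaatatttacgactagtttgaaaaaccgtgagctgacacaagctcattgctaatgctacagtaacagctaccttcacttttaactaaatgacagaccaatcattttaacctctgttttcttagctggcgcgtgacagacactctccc
The G-box CACGTG, a site many bHLH factors bind, was found in 1 of the 10 upstream regions and in 6.49% of 27443 regions of the same 250 bases. The broader E-box CANNTG, which includes the G-box and the next 2 words, was found in 8 of 10 regions and in 55.3% of all. CACCTG and CACTTG were found in 0 of 10, and in 2.57% and 9.39% of all. Each word was searched on both strands.

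Values of single libraries are given in the order of libraries 1, 2 and 3 throughout. Fitting the steps between low FPKM values gave depths of 24200000, 14000000 and 13200000 fragments for sgd and 25800000, 33400000 and 39900000 for wild type. Estimated depth was therefore lower in sgd than in the wild-type library of the same number. Library 1 of each genotype stood apart from libraries 2 and 3: AT3G06355, a noncoding RNA locus, was at 33300 FPKM in sgd library 1 and 44100 FPKM in wild-type library 1, and at most 2560 FPKM in the other sgd and 935 FPKM in the other wild-type libraries. Of 8 ovule marker genes, 0 rose and 2 fell among 6 tested in limma (0 and 3 at an unadjusted p under 0.05), and their summed level was 307 to 564 FPKM in sgd and 595 to 1170 FPKM in wild type. STK, a MADS-box gene of ovule identity, stood at 114 to 314 FPKM in sgd and 341 to 750 FPKM in wild type, while WUS was listed at 0 in all sgd libraries and at 0 to 0.03 FPKM in wild type. STK was the largest term of the sum in every library. BEL1, ANT and SPL were also lower in sgd without overlap. INO and ATS overlapped between genotypes, and TT16 stood at 106 to 124 FPKM in sgd and 103 to 123 FPKM in wild type. Of 10 pollen and sperm markers, 5 rose and 0 fell among 7 tested in limma (5 and 1 at an unadjusted p under 0.05), with sums of 95.8 to 207 FPKM in sgd and 14.0 to 31.6 FPKM in wild type. Within this list HAP2 and GEX2 went the other way. They stood at 0.16 to 0.48 and 0.40 to 1.11 FPKM in sgd, against 0.83 to 1.36 and 1.77 to 2.41 FPKM in wild type. MGH3 was higher in sgd, at 0.56 to 0.86 FPKM against 0.06 to 0.29 FPKM. Of 6 green tissue markers, 1 rose and 0 fell among 6 tested in limma (2 and 0 at an unadjusted p under 0.05), with sums of 2010 to 3340 FPKM in sgd and 623 to 1740 FPKM in wild type. CAB1 was the largest term of this sum in every library. RBCS1A, CAB1 and PSBO1 were higher in sgd without overlap, while LHCB2.1 and PSAD-1 overlapped. CAB2 stood at 6.02, 9.26 and 7.82 FPKM in sgd and at 5.40, 44.6 and 23.7 FPKM in wild type. Among all tested features 13.3% rose and 4.47% fell in limma. No marker of the 3 lists was at 0 in all 6 libraries. The part of these differences in the results below was not tested.

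NGA1 was the most abundant of the 10 genes in wild-type ovules and lost that place in sgd. The gene (AT2G46870, chr2:19260906-19262533, plus strand) has 1 exon. It stood at 4.02, 6.77 and 6.89 FPKM in sgd and at 13.1, 25.01 and 30.7 FPKM in wild type, so that every sgd library was below every wild-type library. Means were 5.89 ± 1.62 FPKM in sgd and 22.9 ± 8.95 FPKM in wild type (SD, n = 3 each), and the log2 change was -1.75 (SE 0.34). Changes are sgd minus wild type on the scale of log2(FPKM + 1), which understates the change of low genes. In these bulk samples, fewer cells of a type and less RNA per cell cannot be told apart.

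NGA2, the closest relative of NGA1, was nearly as abundant in wild type and lay nearer to its wild-type level in sgd. It is a gene of 1 exon (AT3G61970, chr3:22951323-22953265, plus strand). It stood at 8.37, 13.0 and 13.9 FPKM in sgd and at 14.5, 20.1 and 23.7 FPKM in wild type. The highest sgd value, of library 3, lay just under the lowest wild-type value, of library 1, a library of lower summed FPKM. Means were 11.8 ± 2.98 FPKM in sgd and 19.4 ± 4.61 FPKM in wild type (SD, n = 3 each), a log2 change of -0.68 (SE 0.29).

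NGA3 (AT1G01030, chr1:11649-13714, minus strand) was a low gene, at 0.40, 0.27 and 0.19 FPKM in sgd and 1.80, 1.89 and 2.12 FPKM in wild type. The groups did not overlap. The sgd mean of 0.287 ± 0.106 FPKM was 14.8% of the wild-type mean of 1.94 ± 0.165 FPKM (SD, n = 3 each), the lowest such share among the 6 genes whose mean over the 6 libraries reached 1 FPKM. Its log2 change was -1.19 (SE 0.29). The estimated number of fragments behind it was 17, 6 and 4 in sgd, and 80, 107 and 139 in wild type, so the sgd values rest on few reads. NGA4 (AT4G01500, chr4:639247-640976, plus strand) was listed at 0, 0.12 and 0 FPKM in sgd and at 0, 0 and 0.08 FPKM in wild type, which is an estimated 2 fragments in sgd library 2 and 4 in wild-type library 3. No level or difference can be read from it at this depth.

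The make-up of the NGATHA sum followed these values. All 4 genes together gave 12.8, 20.1 and 21 FPKM in sgd and 29.4, 47.0 and 56.5 FPKM in wild type. NGA1 made up 31.4%, 33.6% and 32.8% of the sum in sgd and 44.6%, 53.2% and 54.2% in wild type. NGA2 was above NGA1 in every sgd library and in wild-type library 1, and NGA1 was above NGA2 in wild-type libraries 2 and 3.

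**Figure D1:**
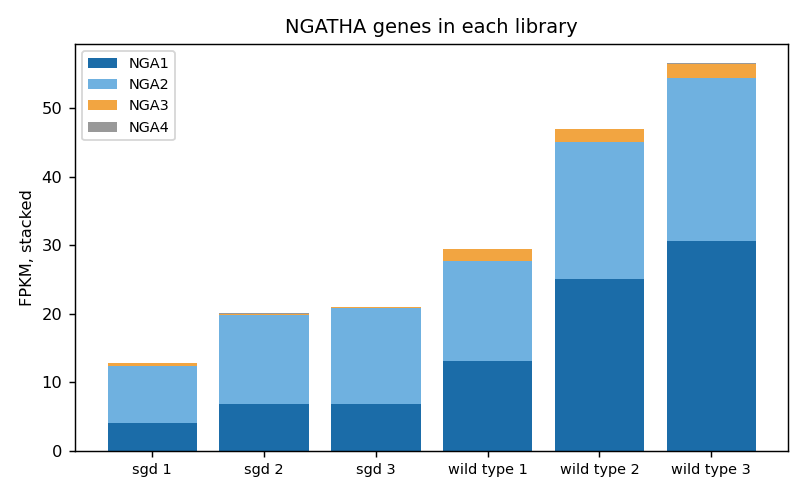
FPKM of NGA1, NGA2, NGA3 and NGA4 stacked in each library, with the 3 sgd libraries left of the 3 wild-type libraries. The sums run from 12.8 to 21 FPKM in sgd and from 29.4 to 56.5 FPKM in wild type, and the NGA1 segment takes 31.4% to 33.6% of the bar in sgd and 44.6% to 54.2% in wild type.

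Of the HECATE genes, HEC3 alone was measured above 1 FPKM in any library. The gene (AT5G09750, chr5:3026109-3027114, minus strand) stood at 1.88, 5.03 and 3.86 FPKM in sgd and 10.3, 14.4 and 25.4 FPKM in wild type. The groups did not overlap, and the spread was wide in both. Means were 3.59 ± 1.59 FPKM in sgd and 16.7 ± 7.81 FPKM in wild type (SD, n = 3 each), a log2 change of -1.92 (SE 0.37), the largest of the 6 genes on this scale. An estimated 37, 47 and 33 fragments lay behind it in sgd and 218, 384 and 758 in wild type.

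HEC1 and HEC2 were at or near the limit of detection in both genotypes. HEC1 (AT5G67060, chr5:26765992-26767257, plus strand) was listed at 0 in all sgd libraries and in wild-type libraries 1 and 2, with 0.03 FPKM in wild-type library 3, an estimated 1 fragment. HEC2 (AT3G50330, chr3:18656955-18658377, minus strand) was listed at 0 in all sgd libraries and at 0, 0.02 and 0.02 FPKM in wild type, an estimated 1 fragment in each of wild-type libraries 2 and 3. A listed 0 need not mean absence and allows up to 3 fragments, estimated at 0.126, 0.256 and 0.278 FPKM for HEC1 and 0.1, 0.198 and 0.214 FPKM for HEC2 in sgd. These floors cover counting error only and lie above the wild-type values, so no difference was detectable at this depth. In coding sequence HEC1 and HEC2 were 78.3% identical over aligned bases, while HEC3 was 63.5% identical to HEC1, 64.1% to HEC2 and 69.5% to IND.

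SPT, which acts with the HECATE proteins in carpel fusion and the transmitting tract, was measured in all libraries. The gene (AT4G36930, chr4:17414083-17416386, plus strand) has 7 exons. It stood at 8.75, 9.39 and 10.8 FPKM in sgd and at 11.8, 21.3 and 20.9 FPKM in wild type. The groups did not overlap, and wild-type library 1 lay close to the sgd values. Means were 9.66 ± 1.07 FPKM in sgd and 18.0 ± 5.37 FPKM in wild type (SD, n = 3 each), a log2 change of -0.79 (SE 0.28).

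IND (AT4G00120, chr4:41665-43197, minus strand), best known for the valve margin along which the fruit opens, was listed at 0, 0.06 and 0 FPKM in sgd and at 0.23, 0.42 and 0.62 FPKM in wild type. This is an estimated 0, 1 and 0 fragments in sgd and 8, 19 and 32 in wild type. The groups did not overlap, and every value was under 1 FPKM. A listed 0 allows up to an estimated 0.0922 FPKM in sgd library 1 and 0.194 FPKM in sgd library 3, both below the lowest wild-type value. The remaining sgd library, at 0.06 FPKM, rests on an estimated 1 fragment and was given no such bound. Whether counting error there reaches the wild-type range was not tested.

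**Figure D2:**
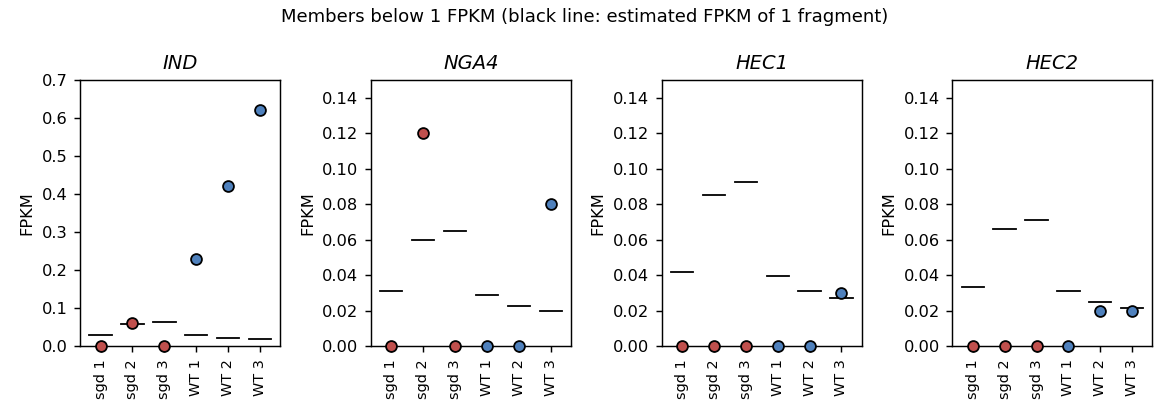
FPKM of IND, NGA4, HEC1 and HEC2 in each library, with sgd libraries left of wild-type libraries, a different vertical scale for IND, and a black line at the estimated FPKM of 1 fragment in that library. IND lies at 0 to 0.06 FPKM in sgd and 0.23 to 0.62 FPKM in wild type, while the other genes are at 0 or within a few fragments of it in both genotypes.

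NTT (AT3G57670, chr3:21370757-21373591, plus strand), the zinc finger gene of the transmitting tract, stood at 0.93, 2.38 and 1.20 FPKM in sgd and at 3.22, 4.09 and 4.83 FPKM in wild type. The groups did not overlap, with sgd library 2 nearest to the wild type. Means were 1.5 ± 0.771 FPKM in sgd and 4.05 ± 0.806 FPKM in wild type (SD, n = 3 each), a log2 change of -1.04 (SE 0.31).

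**Figure D3:**
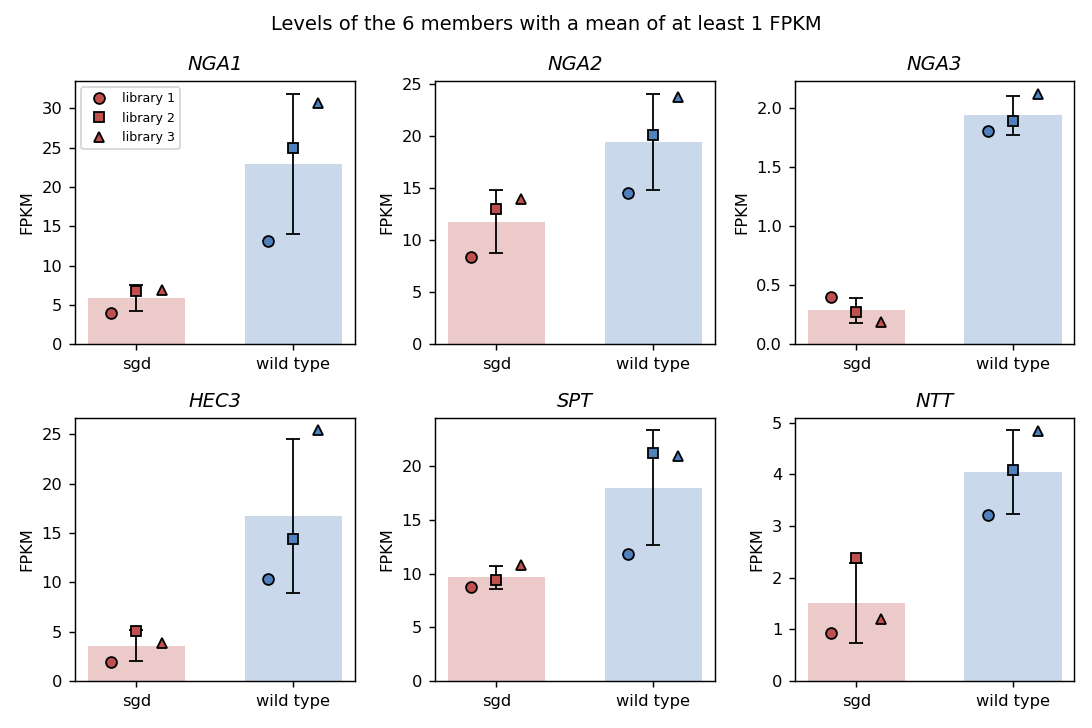
FPKM of NGA1, NGA2, NGA3, HEC3, SPT and NTT, with sgd left of wild type in each panel, bars at the mean, error bars of 1 SD (n = 3) and a symbol per library. In each panel all sgd libraries lie below all wild-type libraries. The sgd mean as a share of the wild-type mean is lowest for NGA3 (14.8%) and highest for NGA2 (60.6%).

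FPKM is scaled to transcript length, so levels can be set in order across genes. In sgd the order of means was NGA2, SPT, NGA1, HEC3, NTT and NGA3, and NGA4, IND, HEC2 and HEC1, at 0 to 2 estimated fragments a library, have no order. In wild type it was NGA1, NGA2, SPT, HEC3, NTT, NGA3 and IND, and NGA4, HEC2 and HEC1 have no order. The first 4 genes of the wild-type order overlapped their neighbours in range over the libraries, and HEC3 was separate from NTT, NTT from NGA3, NGA3 from IND and IND from NGA4. In sgd, SPT was separate from NGA1 and NTT from NGA3, while NGA2 overlapped SPT and NGA1, HEC3 and NTT overlapped in turn. NGA3 cannot be told apart from NGA4 in sgd library 3. NGA3 was at 0.19 FPKM there, and the listed 0 of NGA4 allows up to an estimated 0.195 FPKM. Among all 30457 features, NGA1 lay at percentile 53.4 by its sgd mean and 78.6 by its wild-type mean, HEC3 at 48.9 and 72.1, and NGA2 at 62.6 and 75.1.

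All 3 sgd values lay below all 3 wild-type values for 7 of the 10 genes, NGA1, NGA2, NGA3, HEC3, SPT, IND and NTT, and for 8.80% of the 18100 features whose mean reached 1 FPKM. Of the 6 genes above that mean, which were fitted with all other features in limma, 4 (NGA1, NGA3, HEC3 and NTT) passed as lower at a Benjamini-Hochberg adjusted p under 0.05, as 4.47% of all features did. NGA2 and SPT did not pass, which does not show that they did not differ. When wild-type library 1, 2 or 3 was left out, NGA3 fell under the filter, and 3, 2 and 2 of the other 5 passed, against 4.1%, 2.1% and 2.25% of all features. When sgd library 3 was left out 2 of 6 passed, against 3.32%, and without both replicate 1 libraries 6 did, against 17.5%. With the replicate number as a block all 6 passed as lower, against 14.3% of all features, while 26.5% of all features passed as higher. Nothing is read from these counts, because the genes were chosen with this same contrast in view and a gene that clears the filter only through its wild-type level had to differ. NGA3 is such a gene. The threshold of 1 FPKM lay between NGA3 and IND.

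The median change of the 6 genes was -1.11, and the median of all 18100 features was 0.13, so that relative to all features the changes were -2.05 for HEC3, -1.87 for NGA1, -1.32 for NGA3, -1.17 for NTT, -0.92 for SPT and -0.81 for NGA2. Over all features, 2407 were called higher and 809 lower, so 74.8% of calls were higher in sgd. It was 61.1% with libraries set to equal totals, 50.5% with median-ratio scaling and 45.8% with quantile normalization. The 6 genes stayed lower in sgd under each of these scalings, and under median-ratio scaling all 6 passed, against 18.7% of all features. Nothing is read from this count either, because the genes were chosen with this same contrast in view.

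**Figure D4:**
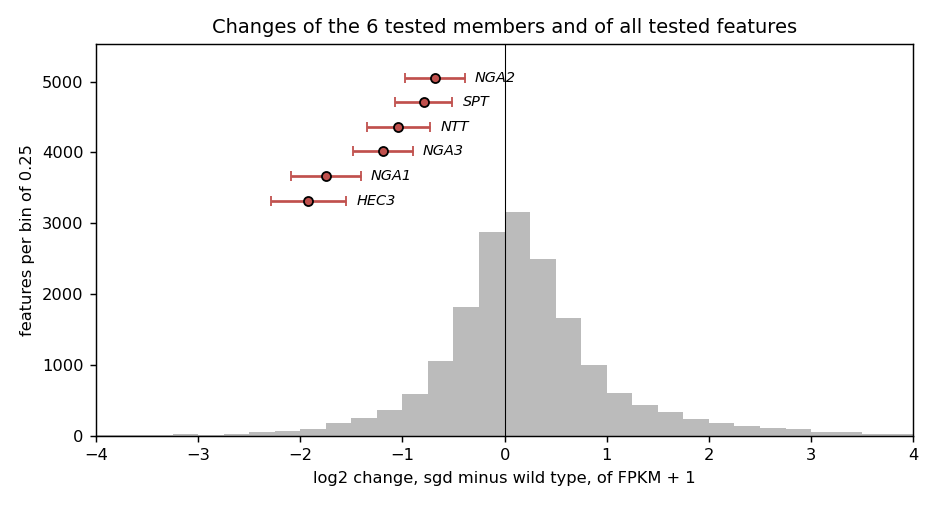
Grey bars count the 18100 tested features by their log2 change, sgd minus wild type, in bins of 0.25, drawn between -4 and 4, and red points with bars of 1 SE mark the 6 members, whose height carries no value. The members run from -1.92 for HEC3 to -0.68 for NGA2, left of the median of all features at 0.13.

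Because the groups did not overlap for these 7 genes, sgd had to be lower in every pair of libraries with the same number, so the direction adds nothing. The size of the difference varied between pairs. The sgd value was 30.6%, 27.1% and 22.5% of the wild-type value for NGA1 in pairs 1, 2 and 3. For NGA2 it was 57.6%, 64.7% and 58.9%, a narrow range. For HEC3 it was 18.2%, 34.9% and 15.2%, and for NTT 28.9%, 58.2% and 24.8%, so pair 2 lay nearest to equality for both. SPT was at 74.1%, 44.2% and 51.7%, with pair 1 nearest to equality. Within each genotype, library 1 held the lowest FPKM of NGA1, NGA2, HEC3, SPT and NTT. It also had the lowest summed FPKM of its genotype, and the part of that total in these values was not tested.

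The other genes of the pathway were taken from 4 lists, which were drawn up with earlier results of these data known. Of 84 genes, 56 were tested, and in the limma fit 6 rose and 15 fell in sgd, against 13.3% and 4.47% of all features. With the replicate block 11 rose and 23 fell of 56, against 26.5% and 14.3% of all features. Without both replicate 1 libraries 16 rose and 23 fell of 55, against 32.2% and 17.5%. Without wild-type library 2 or 3, 9 fell of 54, against 2.1% and 2.25% of all features.

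Gynoecium and carpel margin genes fell in 6 of 21 tested members of a list of 32, and none rose (0 also at an unadjusted p under 0.05 in limma, against 9 lower). Their median change was -0.44, against 0.13 for all features, of which 4.47% fell and 13.3% rose. STY1 (AT3G51060), a SHI-family factor of the style that promotes auxin synthesis, stood at 1.49, 8.69 and 5.55 FPKM in sgd and at 32.4, 84.1 and 94.5 FPKM in wild type. The groups were far apart, and the log2 change was -3.58 (limma adjusted p = 0.00126, SE 0.52).

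CES (AT1G25330), a bHLH factor that acts in the reproductive tract, fell to 3.65 ± 2.04 FPKM in sgd, against 28.5 ± 6.52 FPKM in wild type (SD, n = 3 each, limma adjusted p = 0.000863). ANT (AT4G37750), a regulator of carpel margin and ovule growth, and CUC2 (AT5G53950), a NAC factor of organ boundaries, fell with log2 changes of -2.12 (SE 0.41, limma adjusted p = 0.00577) and -1.37 (SE 0.33, limma adjusted p = 0.0161). Leaving out wild-type library 2 or 3 ended the CUC2 call (adjusted p of 0.0556 and 0.0581 in limma). ETT and AG, which pattern the gynoecium and specify the carpel, were the remaining falls. With each of the 3 scalings 11 of the list fell and 1 or 2 rose, against 14.5%, 18.7% and 20.6% of all features lower with equal totals, median ratios and quantiles. With the replicate block 9 fell and 3 rose, against 14.3% and 26.5% of all features. When either of wild-type libraries 2 and 3 was left out 3 fell, against 2.1% and 2.25%. The summed ovule and pollen markers given above moved with the genotype beside these genes, and their part was not tested. STK and ANT belong to both the ovule markers and this list, so the ovule sum is not independent of it.

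Hormone genes that act in the gynoecium fell in 7 of 19 tested members of a list of 23, and 1 rose. The shares of all features were 4.47% lower and 13.3% higher. Of the 7, 4 (YUC1, YUC4, ARR7 and CKX3) had a sgd mean under 1 FPKM and reached the filter through wild type, so they had to differ. At a filter of 5 FPKM, 3 of 8 fell, against 3.81% of all features. The median change was -0.78, against 0.13 for all features. TAA1 (AT1G70560), the aminotransferase of auxin synthesis, stood at 1.35, 5.52 and 5.45 FPKM in sgd and at 15.9, 24.3 and 26.0 FPKM in wild type, with no overlap (log2 change -2.29, SE 0.40, limma adjusted p = 0.00342). YUC4 (AT5G11320), which carries out the next step of auxin synthesis, was at 0.23, 0.06 and 0.06 FPKM in sgd and 2.40, 4.68 and 6.33 FPKM in wild type, and YUC1 (AT4G32540) was listed at 0 in every sgd library against 4.55 to 6.11 FPKM in wild type.

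Other falls among the hormone genes included the protein kinase gene WAG1, the cytokinin oxidase gene CKX3 and the response regulator gene ARR7. The rise was ARR1, a cytokinin response factor, listed by RefSeq as RR1. No rise was called without wild-type library 1, 2 or 3 or sgd library 2 or 3. Without sgd library 1, 3 were called, against 19.5% of all features. With the replicate block 9 fell and 1 rose, against 14.3% and 26.5% of all features.

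Relatives of the 10 genes rose in 5 of 11 tested members of a list of 21, 1 fell and 5 were not called. The shares of all features were 13.3% higher and 4.47% lower. The median change was 0.75, against 0.13 for all features. ABS2 (AT2G36080, also called NGAL1), a B3 gene related to the NGATHA genes, stood at 126, 34.0 and 52.4 FPKM in sgd and at 3.98, 5.67 and 6.07 FPKM in wild type. The groups were far apart and sgd library 1 was highest (log2 change 3.32, SE 0.42, limma adjusted p = 0.000605). RAV1 (AT1G13260) and TEM1 (AT1G25560), B3 genes of the RAV group in which TEM1 represses flowering, rose to 16.3 ± 6.0 and 36.3 ± 7.75 FPKM in sgd, against 1.55 ± 0.681 and 9.01 ± 0.854 FPKM in wild type (SD, n = 3 each, limma adjusted p = 0.000593 and 0.000835).

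PIF4 (AT2G43010), a bHLH factor of light and temperature responses from a subfamily near SPT, was at 25.8, 18.6 and 29.7 FPKM in sgd and 0.35, 0.33 and 0.32 FPKM in wild type, with no overlap (log2 change 4.24, SE 0.26). It reached the filter through sgd and so had to differ. PIF3 was the remaining rise. The fall was AT3G21330, which stood at 0.87 to 1.38 FPKM in sgd and 5.44 to 7.33 FPKM in wild type. The list also gave 5 rises with each of the 3 scalings, beside 2 falls with equal totals and 3 with each of the other scalings, and 7 rose and 2 fell with the replicate block. All features were called higher in 22.8%, 19.1% and 17.4% with equal totals, median ratios and quantiles, and lower in 14.5%, 18.7% and 20.6%. The block called 26.5% of all features higher and 14.3% lower.

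Of 8 TCP genes of the CINCINNATA class, which act with NGATHA genes to end growth at leaf margins, 5 were tested in limma, 1 fell and none rose (0 higher and 3 lower at an unadjusted p under 0.05). The shares of all features were 4.47% lower and 13.3% higher. TCP10 (AT2G31070) stood at 5.22, 10.2 and 11.8 FPKM in sgd and at 16.8, 23.6 and 21.3 FPKM in wild type (log2 change -1.15, SE 0.31, limma adjusted p = 0.0294). That call was lost without wild-type library 1, 2 or 3 (adjusted p = 0.0547, 0.115 and 0.0883) and with no filter (adjusted p = 0.0655). TCP4 (AT3G15030) and TCP24 (AT1G30210) did not pass, with log2 changes of -1.04 (SE 0.33) and -0.79 (SE 0.32), and passed with the replicate block (limma adjusted p = 0.0197 and 0.0097). TCP2 (AT4G18390) stood at 33.1 ± 12.6 FPKM in sgd and 25.9 ± 4.73 FPKM in wild type (SD, n = 3 each). The median change of the 5 was -0.79, against 0.13 for all features, and 3 fell with the block and with each of the 3 scalings. All features fell in 14.3% with the block, and in 14.5%, 18.7% and 20.6% with equal totals, median ratios and quantiles.

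**Figure D5:**
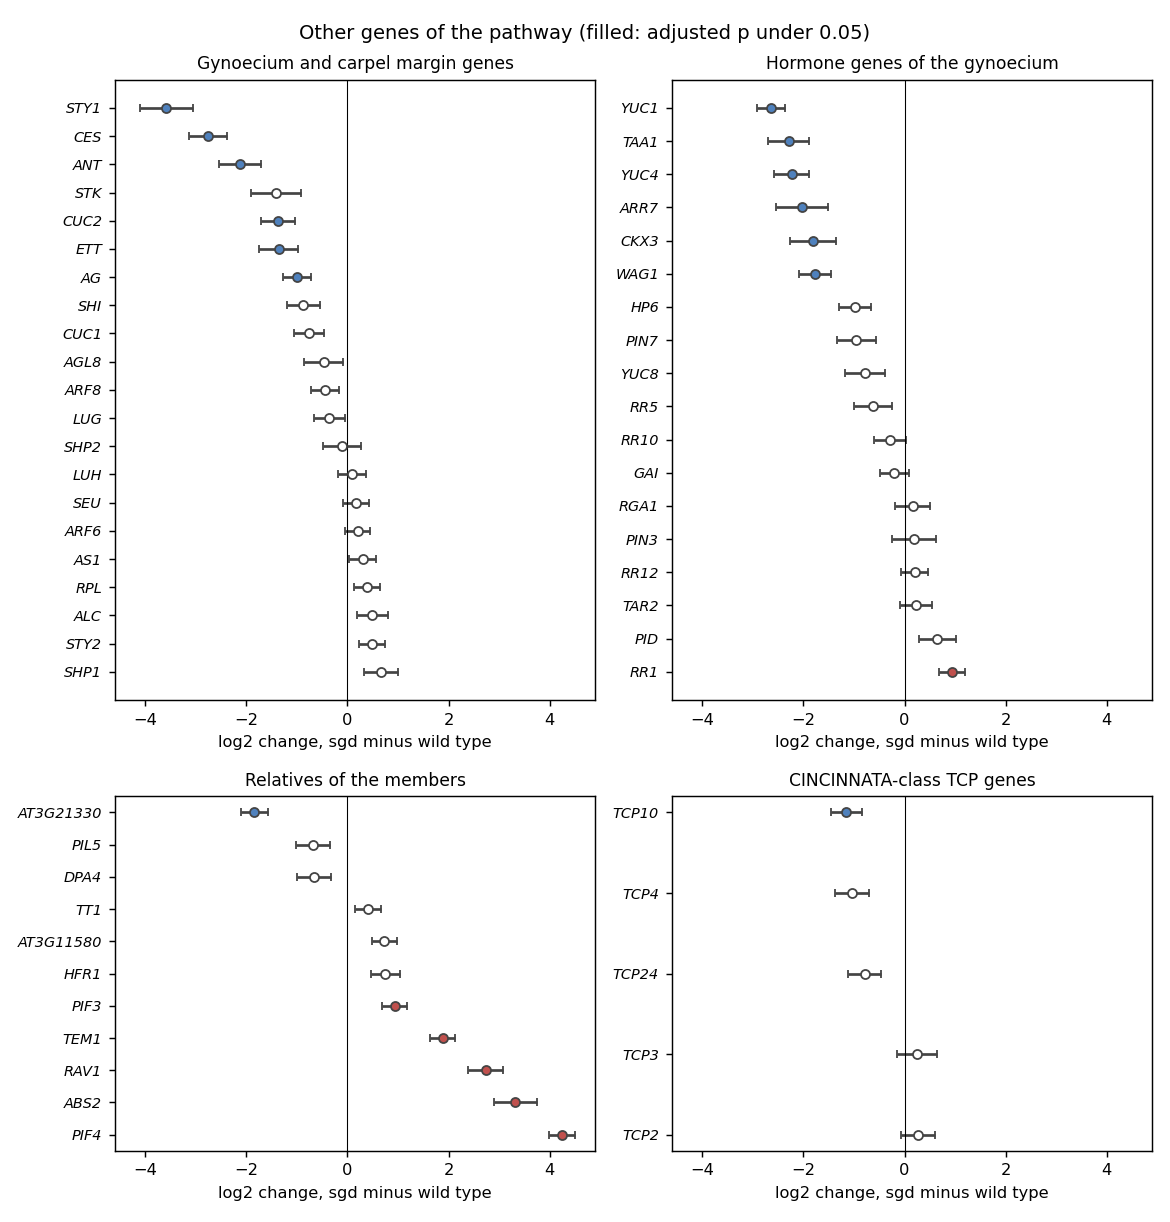
Log2 change, sgd minus wild type, with bars of 1 SE, for the tested genes of the 4 lists except 1 lower hormone gene that is not drawn, filled blue where lower and red where higher at an adjusted p under 0.05 and white where not called. Called genes lie left of 0 among the gynoecium genes (6 of 21) and mostly so among the hormone genes (6 lower and 1 higher drawn), and on both sides among the relatives (5 higher, 1 lower).

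For each of the 6 genes, the feature with the most similar profile was found as the smallest root mean square difference of gene-centred log2(FPKM + 1) over the 6 libraries. For HEC3 it was RBE (AT5G06070), a zinc finger gene of petal growth, at a difference of 0.119, with 1.42, 4.39 and 3.57 FPKM in sgd and 7.44, 12.4 and 19.3 FPKM in wild type. For NGA3 it was PAN (AT1G68640), a bZIP gene of floral organ number, at 0.106, with 1.26, 0.88 and 0.70 FPKM in sgd and 3.73, 3.94 and 4.40 FPKM in wild type. For NGA1 it was XTH8 (AT1G11545), a cell wall enzyme gene, at 0.0882. XTH8 stood at 0.12, 0.65 and 0.62 FPKM in sgd and at 1.62, 4.07 and 5.75 FPKM in wild type. For NTT it was SFH3 (AT2G21540) at 0.0614. AT3G57680 was nearest to SPT at 0.0644, and AT2G45135 to NGA2 at 0.0471. AT2G45135 stood at 0.14, 0.82 and 0.76 FPKM in sgd and at 0.99, 1.62 and 2.06 FPKM in wild type. The scale of log2(FPKM + 1) narrows the changes of low genes. A small difference from such a gene therefore does not mean an equal ratio of sgd to wild type.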

How the data were processed

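Poly(A) RNA of 3 sgd and 3 wild-type libraries was measured. The authors deposited a table per library with 30457 features in FPKM, a level scaled to transcript length and library total, per the file headers. The submitters' processing notes name TopHat2 2.1.1, cutadapt 1.15, RSEM, CASAVA and DESeq2 and the build TAIR10 without saying what each was used for. Whether counting used strand is not stated there. The 18100 features whose average over the libraries reached 1 FPKM were tested in limma 3.58.1 (R 4.3.3, lmFit and a trended eBayes) on log2(FPKM + 1). Tests were two-sided and p-values were adjusted over all these features by Benjamini-Hochberg, with a threshold of 0.05. No test result is reported as evidence for the 10 genes. The genes and the 4 lists were chosen with earlier results of these data known. Named list genes are the up to 4 with the smallest p in each list, and the feature nearest in profile to each tested member. Of these, 1 hormone gene is counted but not reported here. ETT, AG, WAG1, CKX3, ARR7, ARR1, PIF3 and AT3G21330 complete small counts and were named after their values were seen.

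Depth and fragment length were fitted so that low FPKM values of single-transcript genes gave whole fragments. Between 93.5% and 96.4% of those values lay within 0.2 of a whole number, at the step fitted to them, so depths, fragment counts and floors are estimates. Names matched RefSeq for 98.1% of features. Deviations from the group means correlated between libraries numbered 1, 2 and 3 at 0.524, 0.236 and 0.377. The numbers come from the library titles. They may pair the libraries, which the labels do not say, and the fit has no block. The test was checked on simulated data. Alternatives were other pseudocounts, filters and scalings, the block, other eBayes settings, array weights, and left-out libraries.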

Additional observations from a re-analysis of the deposited data

How the results depend on the processing

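Each of the 6 genes kept its lower level in sgd in every alternative in which it was fitted. Because all sgd values lay below all wild-type values, only a rescaling of the libraries could have changed that direction. In the other alternatives the direction was fixed and adds nothing. Log2 changes ranged from -2.09 to -1.51 for NGA1, -0.87 to -0.47 for NGA2, -2.77 to -1.14 for NGA3, -2.23 to -1.59 for HEC3, -1.06 to -0.66 for SPT and -1.52 to -0.88 for NTT. NGA3 and NTT moved by more than the SD of log2(FPKM + 1) between libraries of a genotype with a pseudocount of 0.1 (-2.43 and -1.46) or 0.01 (-2.77 and -1.52), and NGA3 also with quantile normalization (-1.41). NGA3 fell under the filter without any 1 wild-type library and with a mean of at least 5 FPKM, where NTT did too. Features called higher and lower in sgd numbered 4129 and 2626 after rescaling to equal totals, 4793 and 2583 with the replicate block, 8190 and 4421 with array quality weights, whose estimate did not converge, and 5797 and 3156 without both replicate 1 libraries. Median-ratio scaling gave 3391 lower features and quantile normalization 3726. Pathway genes called lower numbered 25, 26 and 26 with equal totals, median ratios and quantiles. Higher and lower pathway genes were 11 and 23 with the block, 21 and 30 with array weights and 16 and 23 without both replicate 1 libraries. Leaving out 1 library at a time gave 1514 to 3505 features higher and 382 to 1022 lower, and 4 to 8 pathway genes higher and 9 to 17 lower. The cause of these shifts was not tested. The block changed the calls of NGA2, SPT, TCP4, TCP24, STK (lower) and ALC (higher), all to called, and of no other list gene or member named here. Depth limits NGA3 in sgd, IND, NGA4, HEC1 and HEC2 most.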

Other observations

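Some genes of the lists lay under the filter and were not tested, and the following were picked after their values were seen. TEM2, a relative of TEM1, stood at 1.25, 0.93 and 0.94 FPKM in sgd and at 0.07, 0.12 and 0.08 FPKM in wild type, which is the direction of the called RAV-group genes. PIF5 stood at 2.15, 0.59 and 1.18 FPKM in sgd and 0.05, 0.18 and 0.11 FPKM in wild type. BEE1, a bHLH relative of CES, stood at 0.03, 0 and 0.10 FPKM in sgd and 1.06, 1.06 and 0.90 FPKM in wild type. BEE3, the other BEE gene on the list, stood at 0.28, 1.05 and 0.84 FPKM in sgd and 0.22, 0.07 and 0.09 FPKM in wild type, the opposite direction. JAG, a zinc finger gene of organ growth, was listed at 0 in all sgd libraries and at 0.37, 0.68 and 0.46 FPKM in wild type.

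ALC, the bHLH gene most closely related to SPT, was also picked after its values were seen. It stood at 160, 195 and 190 FPKM in sgd and at 104, 141 and 145 FPKM in wild type, a log2 change of 0.49 (SE 0.31) that did not pass (limma adjusted p = 0.335) but passed with the replicate block (limma adjusted p = 0.0188). It was at 155%, 139% and 131% of wild type in pairs 1, 2 and 3, against 74.1%, 44.2% and 51.7% for SPT. The difference between the 2 changes was not tested.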
